A study of Mus musculus with 26 samples.

Results

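The endothelin system was followed in mouse neural stem cells through 6 genes: the receptors Ednrb and Ednra, the ligand genes Edn1 and Edn3, and the converting enzymes Ece1 and Ece2. The members were all probe sets whose annotation named 1 of these genes and no other. They came to 68 of 269751 probe sets, and to 5 of the 23152 genes with such probe sets. Ednrb had 11, Ece1 18, Ece2 22, Edn1 7 and Edn3 10 probe sets, and none was shared with another gene. No probe set named Ednra alone, so the A receptor was not analysed here. The group was selected on the level of Ednrb, which was lower in cells with MYBQKI6 than in cells with eGFP. The values of that contrast are therefore given as a description, with no test.

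The stem cells came from wild-type C57BL6 embryos at E14.5 and all carried a lentiviral construct. In the pool set, cells expressed MYBtr, MYBQKI5, MYBQKI6, QKItr or the fluorescent protein eGFP, each in pools 1, 2 and 3. MYB is a DNA-binding transcription factor, QKI is an RNA-binding protein, and MYBQKI is their fusion, known from angiocentric glioma of children. The labels do not spell out what tr stands for or what was pooled. Each pool had 1 array per construct and 2 for eGFP, which were averaged, so every group had n = 3 pools. In a second set of 8 arrays, all cells expressed MYBQKI6, with Qk suppressed on 5 arrays and LacZ, a bacterial gene used as control, on 3. Nothing in the labels says that samples came from different animals or cultures, so the p-values rest on a spread that may be technical.

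Endothelins are short vasoactive peptides that are cut from larger precursors. Converting enzymes on the cell surface and in secretory vesicles, encoded by Ece1 and Ece2, make the last cut. The peptides act on G protein-coupled receptors: the A receptor prefers the peptide of Edn1, while the B receptor encoded by Ednrb binds all endothelins. Edn3 and Ednrb are needed for the neural crest cells that form enteric ganglia and pigment cells. In the brain, Ednrb is known as a gene of radial glia and astrocytes.

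Ednrb is the member whose values with the MYB constructs all lay below those with both controls, which is a description and not a test. The stretch of 250 bases before the transcript start that the RefSeq table lists for it is therefore shown. It is the RefSeq sequence of mouse build GRCm38.p6, chr14:103843702-103843951, minus strand, 5′ to 3′. The annotated span of the gene, chr14:103814615-103844508, reaches further upstream, so this start and window lie inside it. Capitals mark matches to AACNG, the core of the MYB binding motif, searched on both strands. The first Ece1 window, chr4:137861987-137862236 on the plus strand of the same build, is shown beside it.
Ednrb: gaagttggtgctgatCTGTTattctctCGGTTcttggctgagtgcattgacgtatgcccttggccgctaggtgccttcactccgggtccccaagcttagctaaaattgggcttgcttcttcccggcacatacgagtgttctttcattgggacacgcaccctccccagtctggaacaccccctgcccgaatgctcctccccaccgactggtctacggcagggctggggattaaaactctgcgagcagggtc
Ece1: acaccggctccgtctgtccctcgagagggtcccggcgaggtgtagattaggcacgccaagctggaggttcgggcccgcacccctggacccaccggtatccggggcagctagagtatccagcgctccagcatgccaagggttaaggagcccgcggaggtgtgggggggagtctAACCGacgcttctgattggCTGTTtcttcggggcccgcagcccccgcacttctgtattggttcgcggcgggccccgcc
The Ednrb window held 2 matches, 235 and 223 bases before that start, both on the opposite strand. The Ece1 window also held 2, at 78 bases on the gene's own strand and at 59 bases on the other. Of the further Ece1 windows, the second and the fourth held 2 each and the third held none. The second window overlaps the first, and its 2 matches are the same sites as those in the first. The Edn3 and Ece2 windows held 1 each, the Edn1 window held none and the Ednra window held 3, the most. At least 1 match was present in 74.2% of the 32851 windows of the same length in the RefSeq table, so the letters are common. A second motif, ACAAAG, the core bound by SOX factors, was in 16.5% of windows and in none of these genes. A match describes the sequence and is not evidence of binding.

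Values are deposited log2 signals, on which a difference of 1 is a 2-fold change. The median over probe sets was 5.61 to 5.74 on the 18 pool arrays and 5.39 to 5.51 on the 8 suppression arrays, and no comparison was made across the sets. Myb signal was 7.12 to 7.36 with MYBtr, 6.80 to 7.34 with MYBQKI5 and 7.10 to 7.89 with MYBQKI6, against 4.60 to 5.34 with QKItr and 4.30 to 5.18 with eGFP. The MYB constructs thus stood apart from both controls in every pool. The mean of 9 neural stem cell markers was 8.74 to 9.22 on the pool columns, against 4.22 to 4.53 for 8 endothelial markers, 3.84 to 4.28 for 5 melanocyte markers and 4.10 to 4.61 for 6 microglial markers. Markers of pericytes and smooth muscle averaged 4.91 to 5.32, with Notch3 the highest, and those of neurons 5.01 to 5.44. In bulk samples, fewer cells of a type and less RNA per cell cannot be told apart.

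Ednrb, the B receptor, was lower with each MYB construct than with either control, in every pool. Its signal was 6.63, 7.07 and 7.84 in pools 1, 2 and 3 with MYBtr. With MYBQKI5 it was 6.78, 7.88 and 7.61, and with MYBQKI6 it was 6.83, 7.08 and 7.82. The 3 MYB groups covered the same range, and pool 1 was the lowest in each of them. With QKItr the signal was 9.21, 9.22 and 8.95, and with eGFP it was 8.86, 8.69 and 8.82. The highest MYB value, 7.88, lay below the lowest control value, 8.69. Of all genes, 7.44% were lower with groups that did not overlap for MYBtr against eGFP, 7.95% for MYBtr against QKItr, 6.3% for MYBQKI5 against eGFP and 5.97% for MYBQKI5 against QKItr.

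The order of the group means was QKItr (9.12 ± 0.15), eGFP (8.79 ± 0.09), MYBQKI5 (7.42 ± 0.57), MYBQKI6 (7.24 ± 0.51) and MYBtr (7.18 ± 0.61; SD, n = 3 each). QKItr exceeded eGFP by 0.34, with a 95% interval of -0.35 to 1.02 and an adjusted p of 1.00 by limma. The pools gave 0.35, 0.53 and 0.13. The values of QKItr and eGFP did not overlap, which held for 6.79% of all genes. That interval rests on the spread of all groups, and the MYB groups had larger SDs than QKItr and eGFP. No gene was called between QKItr and eGFP (0% of 23152), with 362 at an unadjusted p under 0.05. MYBQKI5 and MYBtr differed by 0.24 (interval -0.45 to 0.93, adjusted p = 1.00 by limma), with overlapping groups. The interval leaves room for a difference of up to 0.93, so it does not show that these constructs act alike. MYBQKI6 differed from MYBtr by 0.06 and from MYBQKI5 by -0.18, and these groups overlapped too. Since the MYBQKI6 values of Ednrb served to choose the genes, those differences are descriptions. By limma no gene was called for MYBQKI5 against MYBtr, MYBQKI6 against MYBtr or MYBQKI6 against MYBQKI5 (0% each), with 849, 604 and 404 genes at an unadjusted p under 0.05, in the same order.

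**Figure D1:**
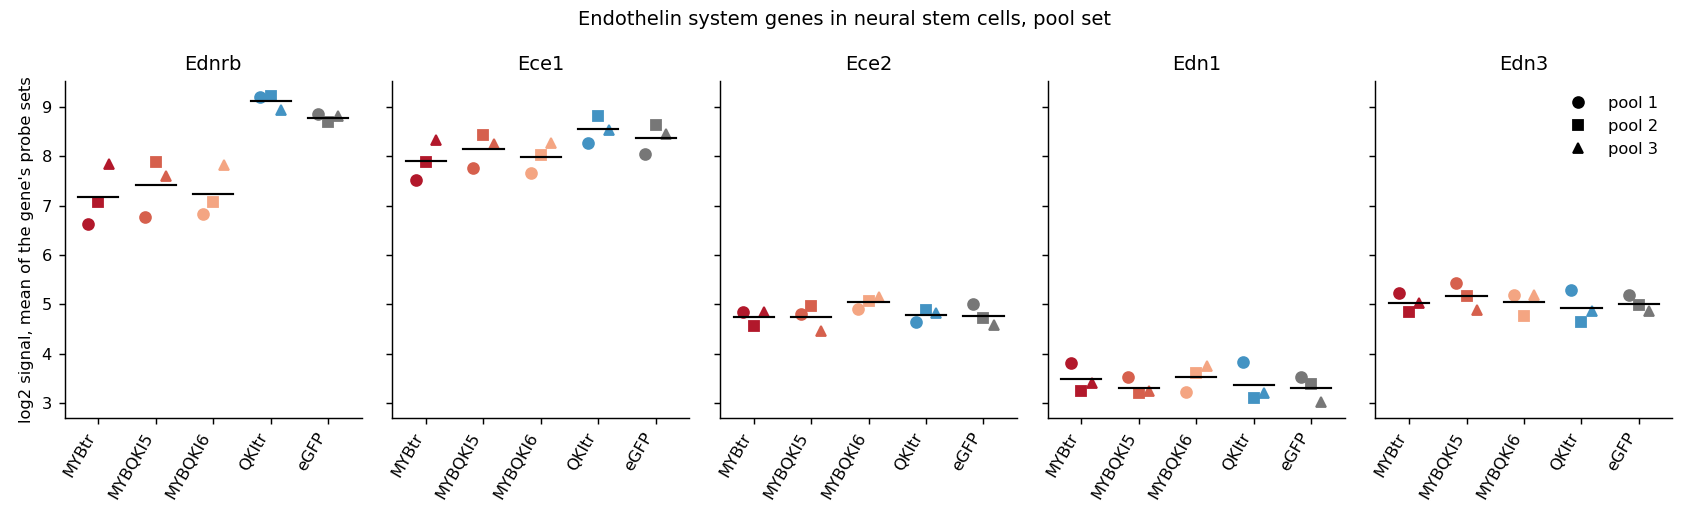
Log2 signal (mean of each gene's probe sets) of the 5 measured members with MYBtr, MYBQKI5, MYBQKI6, QKItr and eGFP. Symbols are pools 1, 2 and 3, and bars are group means (n = 3). Ednrb values with the 3 MYB constructs end at 7.88, below the lowest control value of 8.69, while Ece2, Edn1 and Edn3 overlap between MYBtr, MYBQKI5, QKItr and eGFP.

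The comparisons of MYBtr and MYBQKI5 with QKItr used neither the MYBQKI6 nor the eGFP samples by which the genes were picked. All groups share the estimate of the spread. They also share the pools, and samples with the same pool number deviated together (correlations of 0.31 to 0.72). These comparisons are therefore not independent of that choice, which was made with earlier results of these data known. Ednrb fell with MYBtr, to 7.18 ± 0.61 against 9.12 ± 0.15 with QKItr, a log2 difference of -1.94 (SE 0.32, interval -2.63 to -1.26) or 3.85-fold lower. The pools gave -2.58, -2.14 and -1.11. By limma the adjusted p was 0.0074, and 2.02% of all genes were called in this comparison, 0.678% as lower. The call held with each of the 6 samples left out in turn, at differences of -2.27 to -1.67. It was missed narrowly when only these groups were fitted (adjusted p = 0.051).

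With MYBQKI5, Ednrb fell to 7.42 ± 0.57, against 9.12 ± 0.15 with QKItr. The difference was -1.70 (SE 0.32, interval -2.39 to -1.01), or 3.25-fold lower, and the pools gave -2.43, -1.34 and -1.34. The adjusted p by limma was 0.046, in a comparison that called 0.259% of genes, 0.0907% as lower. Samples that share a pool number deviated together over all genes, so a fit with pool as a block was also used, and it gave an adjusted p of 0.0034, with 3.63% of genes called. Without the block, this call was lost whichever of the 6 samples was left out, with differences of -1.93 to -1.38 and adjusted p-values of 0.0654 (MYBQKI5 pool 2), 0.0753 (QKItr pool 3), 0.11 (MYBQKI5 pool 1), 0.161 (MYBQKI5 pool 3), 0.18 (QKItr pool 1) and 0.189 (QKItr pool 2). With the block and a whole pool left out, the adjusted p was 0.0584 without pool 1, 0.0427 without pool 2 and 0.00903 without pool 3.

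Against eGFP, whose samples also served to pick the genes, Ednrb fell with MYBtr to 7.18 ± 0.61, against 8.79 ± 0.09 with eGFP. The difference was -1.61 (SE 0.32, interval -2.30 to -0.92), or 3.05-fold lower, with -2.23, -1.61 and -0.98 in the pools. Its adjusted p by limma was 0.025, where 1.37% of genes were called, 0.471% as lower. The call was lost without MYBtr pool 1 (-1.33, adjusted p = 0.121), MYBtr pool 2 (-1.55, 0.133), eGFP pool 1 (-1.57, 0.0986), eGFP pool 2 (-1.66, 0.0865) or eGFP pool 3 (-1.59, 0.0772). With pool as a block, which called 5.97% of genes, it was 0.0026 for all pools, 0.0561 without pool 1, 0.0693 without pool 2 and 0.00251 without pool 3.

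MYBQKI5 differed from eGFP by -1.37 in Ednrb (SE 0.32, interval -2.05 to -0.68), with pools at -2.08, -0.81 and -1.21. Its adjusted p by limma was 0.12 without the block and 0.013 with it, where 0.199% and 2.63% of genes were called. The blocked value was 0.151 without pool 1, 0.078 without pool 2 and 0.032 without pool 3. For MYBQKI6, the contrast behind the choice of genes, the mean was 7.24 ± 0.51 against 8.79 ± 0.09 with eGFP. That is a difference of -1.54, with -2.03, -1.60 and -1.00 in the pools, where 0.765% of all genes were called and 4.39% with the block. These comparisons share the eGFP samples and are not independent of each other.

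**Figure D2:**
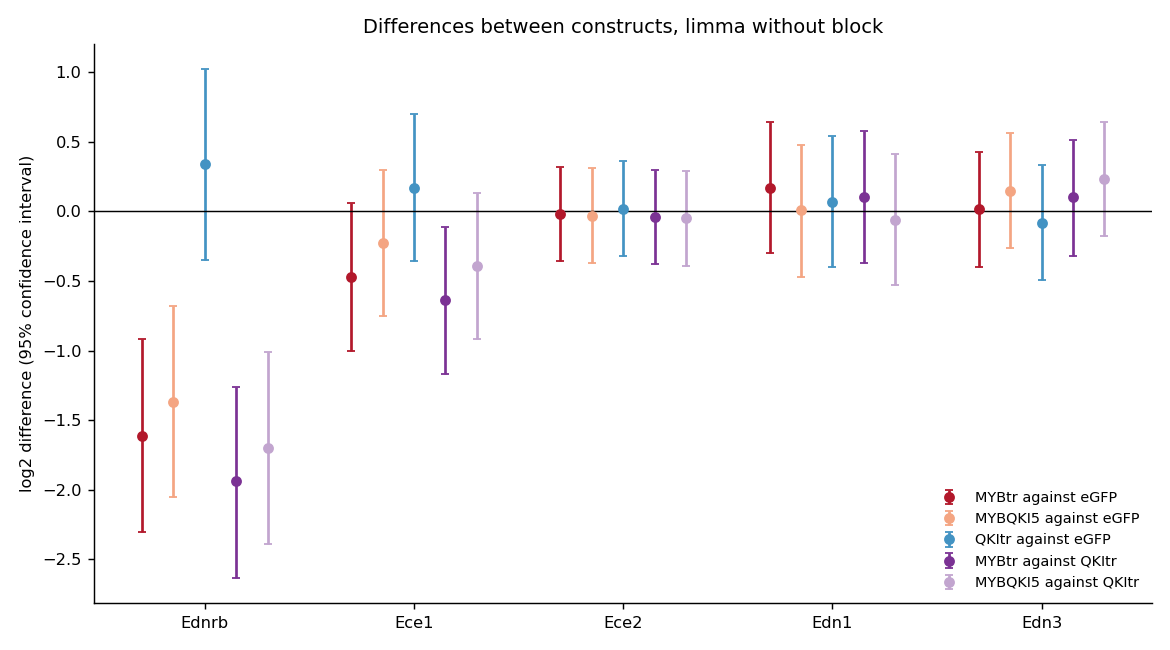
Log2 differences of the 5 measured members with 95% confidence intervals, for MYBtr, MYBQKI5 and QKItr against eGFP and for MYBtr and MYBQKI5 against QKItr (limma without block, n = 3 pools a group). The 4 Ednrb intervals of MYB constructs lie below 0, and those of Ece2, Edn1 and Edn3 all include 0. The eGFP samples also served to pick the genes, through Ednrb, so the Ednrb intervals against eGFP are not free of that choice.

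All 11 Ednrb probe sets were lower with MYBtr and with MYBQKI5 than with QKItr and than with eGFP, and in each of these comparisons no probe set's groups overlapped. Over all probe sets, 6.11% and 5.65% were lower with groups that did not overlap for MYBtr and MYBQKI5 against eGFP, and 6.44% and 5.25% for MYBtr and MYBQKI5 against QKItr. Probe sets of 1 gene read the same RNA and are not replicates. Between MYBtr and QKItr the differences ran from -2.60 to -0.74, with a median of -2.10. Limma over all probe sets called 7 of the 11, or 8 with the pool block, against 0.358% and 1.28% of all probe sets.

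The largest of these differences was in probe set 17309278, at 5.18 ± 0.94 with MYBtr and 7.77 ± 0.38 with QKItr (-2.60, SE 0.40, adjusted p = 0.019 by limma). Probe set 17309277 had the lowest adjusted p, 0.016, at 7.87 ± 0.62 with MYBtr and 9.83 ± 0.13 with QKItr. The smallest difference was in probe set 17309275, the dimmest with eGFP, at 5.05 ± 0.30 with MYBtr and 5.80 ± 0.53 with QKItr (-0.74, adjusted p = 0.46). The brightest, 17309270 and 17309276, had -2.16 and -1.90 and were both called (adjusted p = 0.046 and 0.041).

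Against eGFP, the 11 differences ran from -2.07 to -0.86 with MYBtr and from -2.22 to -1.01 with MYBQKI5. None was called for either without the block, where 0.185% and 0.0652% of all probe sets were called. An unadjusted p under 0.05 by limma was found in 10 and 11 of them. In the gene fits, 2186 and 1575 of 23152 genes had such a p. The share of all probe sets at that unadjusted threshold was not counted. With the block, 3 were called for MYBtr and none for MYBQKI5, against 0.533% and 0.118% of all probe sets. MYBQKI5 against QKItr likewise gave no called probe set with the block (0.181% of all probe sets called) or without it (0.0778%). An unadjusted p under 0.05 was found in 10 of 11, and in the gene fit in 1941 of 23152 genes. For MYBQKI6 against eGFP the range was -2.04 to -1.23. With QKItr, 10 of the 11 were higher than with eGFP, by up to 0.54, and 17309275 had a difference of -0.37.

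**Figure D3:**
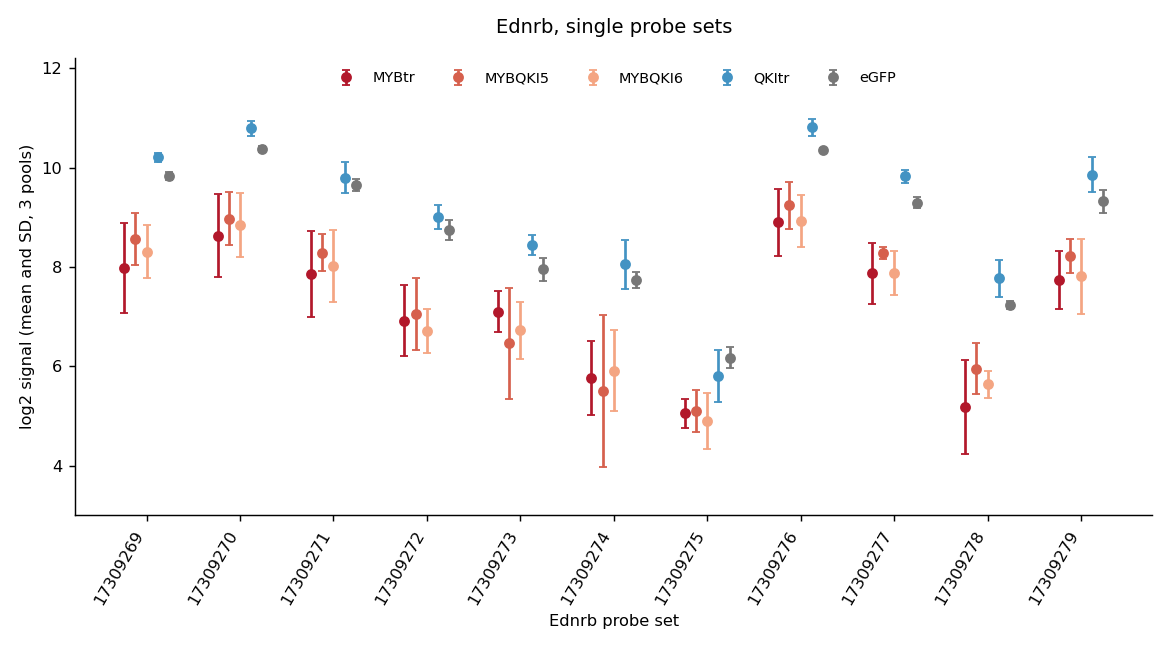
Log2 signal of the 11 Ednrb probe sets (mean and SD over 3 pools) with MYBtr, MYBQKI5, MYBQKI6, QKItr and eGFP. In every probe set the 3 MYB means lie below both control means, most narrowly in probe set 17309275.

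Ece1, the enzyme that makes mature endothelins from their precursors, was lower with MYBtr than with QKItr in each pool. Its signal was 7.52, 7.88 and 8.33 with MYBtr, 7.77, 8.44 and 8.25 with MYBQKI5, and 7.66, 8.03 and 8.27 with MYBQKI6. It was 8.27, 8.83 and 8.54 with QKItr and 8.04, 8.64 and 8.45 with eGFP. The groups overlapped, while within each pool the 3 MYB values lay below both control values. The share of all genes with this order was not counted, and the MYBQKI6 and eGFP samples also served to pick the genes.

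MYBtr and QKItr differed by -0.64 in Ece1 (SE 0.25, interval -1.17 to -0.11), with -0.75, -0.95 and -0.22 in the pools. By limma the adjusted p was 0.25 without the block and 0.0095 with it, where 8.91% of all genes were called. The blocked value was 0.134 without pool 1, 0.212 without pool 2 and 0.00709 without pool 3. MYBQKI5 and QKItr differed by -0.39 (adjusted p = 0.77, or 0.14 with the block). Against eGFP, the difference was -0.47 with MYBtr (adjusted p = 0.62, or 0.058 with the block), -0.23 with MYBQKI5 (1.00, or 0.53 with the block) and, as a description, -0.39 with MYBQKI6. QKItr exceeded eGFP by 0.17 (interval -0.36 to 0.70). MYB constructs differed from each other by -0.17 to 0.24, and none of these differences was called.

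All 18 Ece1 probe sets were lower with MYBtr than with QKItr, where 49.2% of all probe sets were lower. The groups did not overlap in 5, against 6.44% of all probe sets that were lower in that way. The Ece1 probe sets read the same RNA and are not replicates. Their differences ran from -1.73 to -0.12. None was called without the block, where 0.358% of all probe sets were. An unadjusted p under 0.05 by limma was found in 7, and in the gene fit in 3105 of 23152 genes. The share of all probe sets at that unadjusted threshold was not counted, and a share of genes is not the same measure. Only probe set 17420364 was called with the block (adjusted p = 0.049), where 1.28% of all probe sets were, at 7.98 ± 0.21 with MYBtr and 8.93 ± 0.15 with QKItr. With MYBQKI5, 17 of the 18 were lower than with QKItr.

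Across the 15 pool columns, with each pool's mean removed, Ece1 had a correlation of 0.92 with Ednrb. With group means removed as well, it was 0.74. Of the 15049 genes compared, 287 had a correlation with Ednrb at least as high as that of Ece1. The other members had -0.23 (Edn3), -0.12 (Edn1) and -0.07 (Ece2). The 15 columns share pools and constructs, and these values are descriptions.

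The genes most like Ednrb by this measure were Slc38a3, a glutamine transporter, Gpc1, a cell-surface proteoglycan, Nrxn2, a neurexin, Pitpnc1, a phosphatidylinositol transfer protein, and Cerox1, each at 0.99. The most opposite were Gli3, a transcription factor of hedgehog signalling (-0.99), and Gch1, Frat2, Lrrc8b and Tulp3 (-0.98 each). At 0.9 or above stood 408 genes, and at -0.9 or below 306.

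The second converting enzyme and the ligand genes were not called in any comparison. Ece2 had 4.85, 4.55 and 4.85 with MYBtr, 4.81, 4.96 and 4.45 with MYBQKI5, and 4.90, 5.07 and 5.14 with MYBQKI6, against 4.65, 4.88 and 4.83 with QKItr and 5.00, 4.72 and 4.58 with eGFP. The values with MYBQKI6 lay above those with MYBtr, where 7.01% of all genes did not overlap, and just above those with QKItr, where 15.1% did not, and the other pairs of groups overlapped. The lowest unadjusted p of Ece2 was 0.080 by limma, for MYBQKI6 over MYBQKI5 (0.30, interval -0.04 to 0.64). Of the 22 Ece2 probe sets, 7 averaged below the 25th percentile of the arrays (3.77 to 3.87). The Ece2 values all lay below the array medians of 5.61 to 5.74.

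Edn3, which encodes the ligand needed with Ednrb in the neural crest, lay between 4.65 and 5.43 in all 15 columns. Its means were 5.03 ± 0.19 with MYBtr, 5.16 ± 0.27 with MYBQKI5, 5.05 ± 0.24 with MYBQKI6, 4.93 ± 0.32 with QKItr and 5.01 ± 0.16 with eGFP. Every pair of groups overlapped. Its largest tested difference was 0.23, for MYBQKI5 over QKItr (interval -0.18 to 0.64, adjusted p = 0.88 by limma).

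Edn1, which encodes endothelin-1, was dim. It lay between 3.01 and 3.83, and 5 of its 7 probe sets averaged below the 25th percentile of the arrays, which was 3.77 to 3.87. Its means were 3.48 ± 0.29 with MYBtr, 3.31 ± 0.18 with MYBQKI5, 3.52 ± 0.27 with MYBQKI6, 3.37 ± 0.40 with QKItr and 3.31 ± 0.27 with eGFP. A change in RNA could not be read well at this signal.

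Other genes around the pathway were counted from lists chosen with earlier results of these data known. Of 3 relatives, Edn2, Gpr37 and the orphan receptor gene Gpr37l1, which resembles Ednrb in sequence, none was called without the block. With the block, Gpr37l1 fell with MYBtr against QKItr, 6.52 against 7.93 (-1.42, SE 0.38, adjusted p = 0.073 without and 0.0041 with the block). With MYBQKI5 it had 6.78 against 7.93 with QKItr (-1.16, adjusted p = 0.30 without and 0.025 with the block). The blocked fit called 8.91% and 3.63% of all genes for MYBtr and MYBQKI5 against QKItr. Edn2 and Gpr37 differed by 0.06 and 0.26 between MYBtr and QKItr and were not called.

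Of 27 signalling genes downstream of the receptor, 1 was called between MYBtr and QKItr, or 4 with the block, where 2.02% and 8.91% of all genes were, with a median difference of -0.12 against -0.01 over all genes. It was Itpr1, an IP3-gated calcium channel of the endoplasmic reticulum. Itpr1 rose with MYBtr to 8.04 against 6.47 with QKItr (1.57, SE 0.29, adjusted p = 0.015). Against 6.72 with eGFP the rise was 1.32 (adjusted p = 0.041), where 1.37% of all genes were called. With the block, Rgs5 rose and Plcb1 and Gna12 fell with MYBtr against QKItr (0.53, -0.72 and -0.48). None of the 27 was called between MYBQKI5 and QKItr without the block, and Itpr1 rose with it (0.90, adjusted p = 0.041). These fits called 0.259% of all genes without the block and 3.63% with it. Against eGFP with the block, the protein kinase C gene Prkca rose (0.45, adjusted p = 0.031) and Plcb1 fell (-0.49, adjusted p = 0.034) with MYBtr. That blocked fit called 5.97% of all genes.

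Of 10 other peptide-processing enzymes, none was called for MYBtr or MYBQKI5 against QKItr, with or without the block, and the medians were 0.13 and 0.05. Against eGFP with the block, the endopeptidase Phex and the proprotein convertase Pcsk5 rose with MYBtr (0.86, adjusted p = 0.019, and 0.90, adjusted p = 0.032), and Phex rose with MYBQKI5 (0.84, adjusted p = 0.038). These blocked fits called 5.97% of all genes for MYBtr and 2.63% for MYBQKI5. Of 11 partners of Ednrb in neural crest and gut development, 10 were measured. Kit, a receptor tyrosine kinase of pigment and germ cell precursors, rose with MYBtr to 8.60 against 5.73 with QKItr (2.87, adjusted p = 7.8e-04), and with MYBQKI5 to 8.19 against 5.73 with QKItr (2.46, adjusted p = 0.0061). Its ligand gene Kitl rose with MYBtr to 9.05 against 7.79 with QKItr (1.25, adjusted p = 0.043), and with MYBQKI5 it had 9.07 against 7.79 with QKItr (1.28, adjusted p = 0.10, or 0.0019 with the block). Against QKItr, 2.02% of all genes were called for MYBtr and 0.259% for MYBQKI5, or 8.91% and 3.63% with the block. The other 8 measured partners were not called against QKItr in either fit. Against eGFP the transcription factor gene Zeb2 rose with MYBtr with the block (0.48, adjusted p = 0.018), where 5.97% of all genes were called.

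Of 21 radial glia and astrocyte genes, the class in which Ednrb is known in the brain, 3 fell and none rose between MYBtr and QKItr, with a median of -0.50 against -0.01 over all genes. Of all genes, 0.678% fell and 1.34% rose in this comparison. With the block 9 of the 21 fell and 1 rose, where 3.73% of all genes fell and 5.19% rose. The cell adhesion gene Hepacam was 8.43 with MYBtr and 10.15 with QKItr (-1.73, adjusted p = 0.015). The intermediate filament gene Gfap was 4.59 with MYBtr and 5.97 with QKItr (-1.38, adjusted p = 0.028), and the glial transcription factor gene Sox9 was 9.55 with MYBtr and 10.27 with QKItr (-0.72, adjusted p = 0.019). With the block, the growth factor receptor gene Fgfr3 (-1.11), the water channel gene Aqp4 (-1.11) and the neurotrophin receptor gene Ntrk2 (-1.08) fell as well, and the intermediate filament gene Vim rose (0.47). Other members were nearly level, such as Tnc (-0.02) and Aldh1l1 (-0.05), which were not called. Gja1 (0.52), Slc1a3 (0.24) and Slc1a2 (0.12) were higher with MYBtr than with QKItr and were not called in either fit. Between MYBQKI5 and QKItr none of the 21 was called, and with the block Gfap, S100b and Fgfr3 fell (-1.05, -0.95 and -0.88), with a list median of -0.25, where 1.67% of all genes fell and 1.96% rose. Against eGFP, 2 of the 21 fell with MYBtr (Hepacam, -1.65, and Gfap, -1.40), where 0.471% of all genes fell. With the block 8 fell and 1 rose, where 2.64% of all genes fell and 3.33% rose. The part of these markers in the Ednrb difference was not tested. Of the stem cell markers, Sox9 fell with MYBtr against QKItr in both fits. With the block Hes1 also fell (-0.46), as did Nes (-0.59), and Vim rose. Against eGFP with the block, Nes (-1.04), Hes1 (-0.60) and Sox9 (-0.51) fell with MYBtr and Vim rose (0.51). For MYBQKI5 against eGFP with the block, Nes fell (-0.96) and Vim rose (0.39), where 1.36% of all genes fell and 1.27% rose. Between MYBQKI5 and QKItr no stem cell marker was called in either fit. None of the endothelial, microglial and melanocyte markers was called for MYBtr or MYBQKI5 against QKItr or eGFP in either fit. Of the pericyte and neuron markers none was called without the block. With it, Notch3 rose with MYBtr against eGFP (0.70, adjusted p = 0.016), Rgs5 rose with MYBtr against QKItr (0.53, adjusted p = 0.042) and Stmn2 fell with MYBQKI5 against QKItr (-0.45, adjusted p = 0.049).

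In the suppression set, where every array carried MYBQKI6, Qk itself averaged 9.48 ± 0.16 with Qk suppression and 9.70 ± 0.03 with LacZ suppression (SD, n = 5 and 3), a difference of -0.22 (adjusted p = 1.00 by limma). Its signal ranged from 9.30 to 9.70 on the arrays with Qk suppression and from 9.68 to 9.74 on those with LacZ suppression, so these groups overlapped. Ednrb did not differ detectably between Qk and LacZ suppression. With Qk suppressed its signal was 5.83, 4.50, 6.04, 4.80 and 5.67 on arrays 5_2, 6_1, 6_3, 9_1 and 9_3. With LacZ suppressed it was 5.16, 6.47 and 5.39 on arrays 1, 2 and 3. The groups overlapped, and the 2 lowest values were those of the Qk arrays with second number 1. The means were 5.37 ± 0.68 (SD, n = 5) and 5.67 ± 0.70 (n = 3).

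The Ednrb difference was -0.30 (interval -1.14 to 0.54), with an adjusted p of 1.00 by limma and an exact two-sided permutation p of 0.571 over 56 arrangements, of which the smallest possible is 0.0179. The permutations here and below moved arrays freely across second numbers. They ignore that arrays sharing a second number deviated together. With the second number as a block it was -0.19 (adjusted p = 0.84). Without LacZ array 2 the difference turned to 0.09. In this comparison 1 gene of 23152 was called, or 0.00432%.

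**Figure D4:**
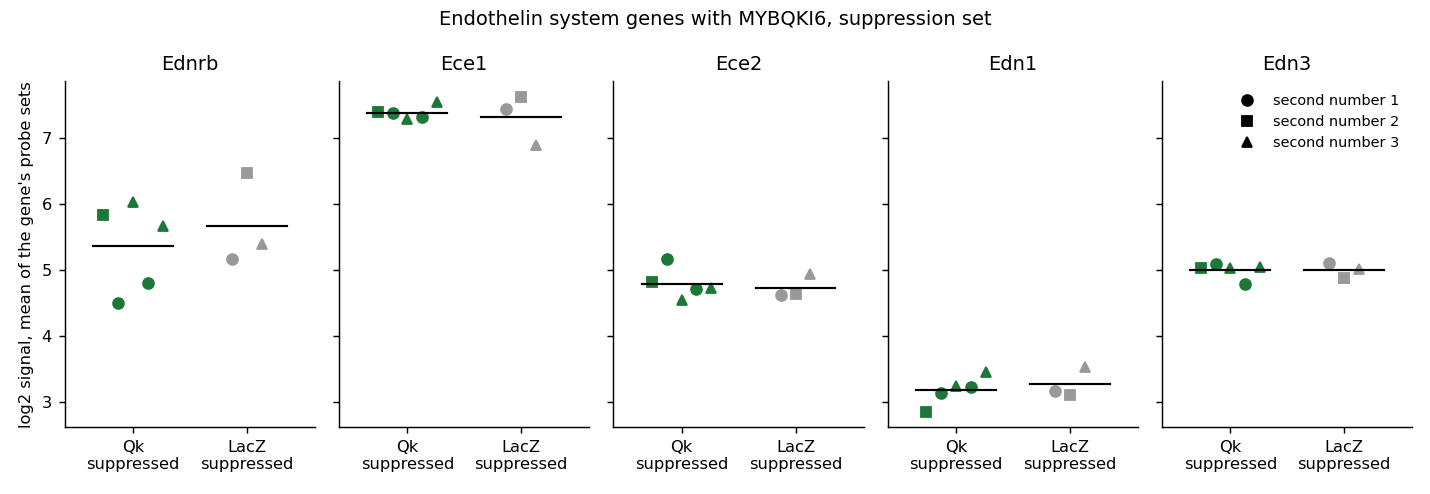
Log2 signal (mean of each gene's probe sets) of the 5 measured members in cells with MYBQKI6, under Qk suppression (5 arrays) and LacZ suppression (3 arrays). Symbols are the second number of the sample name, and bars are group means. The groups overlap for every gene, and Ednrb spreads from 4.50 to 6.04 under Qk suppression.

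The other members differed by 0.07 (Ece1, interval -0.32 to 0.46), 0.06 (Ece2), -0.08 (Edn1) and -0.01 (Edn3) between Qk and LacZ suppression, with exact permutation p-values of 0.643 to 0.964. Among single probe sets, Ednrb probe set 17309272 had the largest difference, at 3.18 ± 1.85 with Qk suppressed and 5.68 ± 0.80 with LacZ suppressed. That is -2.50 with an adjusted p of 0.84 by limma over all probe sets, and its groups overlapped, since array 6_3 had 5.72. No probe set of any member was called in this set with or without the block (0% of all probe sets). An unadjusted p under 0.05 by limma was found in 4 of the 68, and in the gene fit in 946 of 23152 genes. The share of all probe sets at that unadjusted threshold was not counted here either.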

How the data were processed

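Total RNA was biotin-labelled and hybridised to Affymetrix arrays, per the labels. The deposited values are log2 signals per probe set, as their range shows. The authors' normalization and the array's genome build are not given in the sources used here. Probe sets that name a gene alone were averaged to its value, dim ones included. Symbols were updated through RefSeq (20875 current, 2189 updated, 88 kept). Differences were tested with limma 3.58.1 (lmFit, contrasts.fit, eBayes) in R 4.3.3 with data.table, version 1.17.8, over 15 pool columns and, apart, 8 suppression arrays. A gene was called at a Benjamini-Hochberg adjusted p under 0.05 over all 23152 genes, or over all 269751 probe sets. The script was tested on simulated data. Figures were drawn with matplotlib 3.10.9 in Python 3.11.15.

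Samples with the same pool number deviated together: their 30 pairs correlated at 0.31 to 0.72, against a median of -0.23 for the 60 others, and the 5 same-numbered suppression pairs at 0.22 to 0.57. The blocked fit therefore stands beside results that it changes. Alternatives were that block, the brightest probe set, dim probe sets or genes left out, quantile normalization, each eGFP repeat alone, only the groups compared, and each sample left out. Leaving out a whole pool or number with the block was added after the data were seen. The members and lists were chosen with earlier results of these data known. All members, list genes called (at most 6 per list and comparison, smallest p first) and the 5 genes most and least like Ednrb were to be named. Vim, Tnc, Aldh1l1, Nes, Gja1, Slc1a3 and Slc1a2 were named after their values were seen, and not every list gene called against eGFP is named. The number of arrays limits the precision.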

Additional observations from a re-analysis of the deposited data

Results flagged for a closer look

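Edn3 under Qk suppression had a lowest value of 4.79, on array 9_1, set apart from the nearest of the other 4 arrays at 5.03. The gap was 0.81 of the group's whole range. Of the 10 groups of 4 to 10 samples that were examined this way, 1 stood out, and chance gives about 1 in 20.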

How the results depend on the processing

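The cause of each change below was not tested. For Ednrb, the call of MYBtr against eGFP was lost with the brightest probe set (-1.45, adjusted p = 0.0881) and in a fit of only these groups (-1.61, 0.0777). That of MYBtr against QKItr was lost in a fit of only these groups (-1.94, 0.051), which has fewer samples. That of MYBQKI5 against QKItr was lost with the brightest probe set (-1.56, 0.133), without dim probe sets (-1.70, 0.053) and with only these groups (-1.70, 0.0875). The replicate block added the call of MYBQKI5 against eGFP (-1.37, 0.013) and that of Ece1 in MYBtr against QKItr (-0.64, 0.00948), and changed no other call of a member. With samples or whole pools left out, Ednrb ran from -1.94 to -1.30 for MYBtr against eGFP (called in 2 of 9 fits), from -1.65 to -1.01 for MYBQKI5 against eGFP (1 of 9), from -2.36 to -1.63 for MYBtr against QKItr (9 of 9) and from -1.93 to -1.34 for MYBQKI5 against QKItr (2 of 9). It ran from -0.04 to 0.57 for MYBQKI5 against MYBtr, from -0.22 to 0.39 for MYBQKI6 against MYBtr, from -0.50 to 0.13 for MYBQKI6 against MYBQKI5 and from -0.56 to 0.09 for Qk against LacZ suppression. Ece1 ran from -0.68 to -0.27 for MYBtr against eGFP, from -0.85 to -0.44 for MYBtr against QKItr, from -0.12 to 0.28 for MYBQKI6 against MYBtr and from -0.15 to 0.22 for Qk against LacZ suppression. With the brightest probe set, Ece1 was -0.08 for MYBQKI6 against MYBtr and -0.08 for Qk against LacZ suppression. Edn1, Edn3 and Ece2 were called under none of these settings, and their signs changed in 29 of 168 values under the other alternatives and in 62 of 249 with samples left out. Edn1 gave no value where dim genes were left out.

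Counts of genes called moved with the settings. They were 317 for MYBtr against eGFP, 46 for MYBQKI5 against eGFP, 177 for MYBQKI6 against eGFP, 467 for MYBtr against QKItr and 60 for MYBQKI5 against QKItr. With the block they were 1383, 609, 1017, 2064 and 841. With the brightest probe set they were 96, 18, 41, 164 and 16. With only the groups compared they were 37, 34, 27, 51 and 28. For MYBQKI5 against eGFP, leaving out dim probe sets gave 29 and quantile normalization 70. For Qk against LacZ suppression, 1 gene was called, and none with the brightest probe set. With samples or pools left out, the counts ran from 52 to 1089, 11 to 213, 23 to 780, 106 to 1647 and 12 to 379 in the same order.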
